A study of Homo sapiens with 6 samples.

Results

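Integrin subunits are the 2 kinds of chain, alpha and beta, that pair at the cell surface to form adhesion receptors. They were listed by symbol (ITGAV, ITGA2, ITGA3, ITGA4, ITGA5, ITGA6, ITGB1, ITGB3, ITGB5 and ITGB8), and the rows of the count table were matched to them by Ensembl identifier through GENCODE release 29. Of the 10 listed subunits, 9 had a row among 18318 genes, and ITGB3 was not analysed here. All 9 passed the filter on low counts and were tested with 12797 genes in all.

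The 6 libraries come from A375, an established human melanoma line, grown in medium with fetal bovine serum. In 3 libraries, the empty vector group, cells had received the vector backbone as control. In the other 3, the SLNCR group, they had received wild type SLNCR, a long non-coding RNA that RefSeq lists as LINC00673, from a pcDNA3.1 plasmid with a CAG promoter. Both groups were transfected with Lipofectamine® 2000, a lipid reagent, and kept for 48 h in 2 µg/mL puromycin, the drug that the plasmid's resistance gene counters, before RNA was taken. The labels call the 3 libraries of a group biological replicates and say nothing of separate cultures, so p-values measure the spread between these libraries. As these are bulk samples, fewer cells of a type and less RNA per cell cannot be told apart.

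As background, each integrin is a pair of 1 alpha and 1 beta chain, and the pair decides the ligand. ITGB1 can join many alpha chains: with ITGA2 it binds collagen, with ITGA3 or ITGA6 laminin, with ITGA4 fibronectin and the vascular adhesion molecule VCAM1, and with ITGA5 fibronectin. ITGAV joins several beta chains, among them ITGB5 for vitronectin and ITGB8, which holds latent TGF-beta. The cytoplasmic tail of the beta chain binds adaptors such as talin and kindlin, which switch the receptor on and tie it to actin. In melanoma, integrins are known for their part in invasion and survival.

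The coding sequence at the membrane end of the cytoplasmic tail shows the members side by side and how their base composition differs. Each of the 6 alpha chains carries the short motif GFFKR there, whose codons are in capitals below, with 30 coding bases on each side. The sequences are from GENCODE release 29 transcripts (GRCh38), 5′ to 3′ on the coding strand, and the coordinates span an intron, since each window crosses the junction of 2 exons.
ITGAV, chr2:186676909-186677244, plus strand: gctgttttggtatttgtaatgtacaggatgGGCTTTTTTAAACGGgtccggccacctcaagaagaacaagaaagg
ITGA2, chr5:53090036-53090566, plus strand: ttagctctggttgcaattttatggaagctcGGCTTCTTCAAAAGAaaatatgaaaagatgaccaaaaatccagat
ITGA4, chr2:181534909-181535479, plus strand: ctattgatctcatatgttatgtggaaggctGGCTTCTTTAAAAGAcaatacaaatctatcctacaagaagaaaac
ITGA6, chr2:172498074-172504138, plus strand: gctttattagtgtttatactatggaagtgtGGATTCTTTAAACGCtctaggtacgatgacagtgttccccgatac
ITGA5, chr12:54396329-54397391, minus strand: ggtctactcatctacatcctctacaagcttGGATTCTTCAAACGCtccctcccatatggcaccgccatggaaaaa
ITGA3, chr17:50087843-50088272, plus strand: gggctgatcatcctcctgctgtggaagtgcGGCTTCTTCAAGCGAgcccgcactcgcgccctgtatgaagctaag
The window held 33.3% G or C in ITGA4, 34.7% in ITGA2, 40% in ITGA6, 44.0% in ITGAV, 48.0% in ITGA5 and 60.0% in ITGA3. Most of it is flank, which encodes residues that differ between genes. The motif's codons alone held 33.3% in ITGA4, 40% in ITGAV, ITGA2 and ITGA6, 46.7% in ITGA5 and 53.3% in ITGA3. Each transcript shown is the longest coding one of its gene that holds the motif, which may not be the form these cells express.

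Beta chains carry instead the motif NPxY, which talin binds. The stretch around its first copy is given for the pair of beta chains with the highest levels, with the motif's codons in capitals.
ITGB1, chr10:32907096-32908391, minus strand: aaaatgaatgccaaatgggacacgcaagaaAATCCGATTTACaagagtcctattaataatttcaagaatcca
ITGB5, chr3:124763671-124764414, minus strand: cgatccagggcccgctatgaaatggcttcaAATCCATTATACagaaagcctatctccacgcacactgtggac
The window held 33.3% G or C in ITGB1 and 50% in ITGB5. Here too each is from the longest coding transcript that holds the motif. Counts per gene do not tell splice forms apart, so whether these cells express the ITGB1 tail shown is not known. ITGB8 had 0 copies of NPxY in the last 100 codons of its longest coding sequence.

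Over the whole coding sequence the members formed 2 sets by the share of G or C at the third base of codons. ITGAV, ITGA2, ITGA4, ITGA6, ITGB1 and ITGB8 lay between 38.6% and 43.0%, and ITGA5, ITGB5 and ITGA3 between 67.9% and 75.9%. The GC content of the longest transcript followed the same division, from 37.8% in ITGB8 to 44.1% in ITGA4 in the first set, and 54.3% in ITGB5, 54.5% in ITGA5 and 61.3% in ITGA3 in the second. The median over all tested genes was 47.9%. This property is given here because fold changes between the groups followed GC content across all tested genes (r = -0.637 over 12790 genes, which are not independent replicates).

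Library totals lay between 9018886 and 10497547 counts over named genes, and the 9 integrin genes took up 0.191% to 0.204% of them. Pairs of libraries within a group differed beyond counting noise: chi-square over its degrees of freedom was 1.78 to 6.94, highest between SLNCR replicates 2 and 3. The transfected RNA, LINC00673, went from 20.6 ± 1.04 to 215 ± 40.03 CPM (counts scaled to a common library size with TMM factors, SD, n = 3 each), which checks the labels. The label of cell type reads epithelial. CDH1, EPCAM, KRT5 and KRT14 had between 0 and 6 counts in each library. Of the 15 epithelial markers with a row, 11 had a mean below 10. Others were expressed: DSP, ITGB4 and KRT10 had means of 44.3, 35.7 and 27.9 CPM with the empty vector. The summed level of the list was 107 to 117 CPM with the empty vector and 106 to 108 with SLNCR, most of it from those genes. Melanoma and neural crest markers summed to 737 to 774 and 694 to 718 CPM, with MITF, SOX10, MCAM and CSPG4 all detected, while PMEL and DCT had between 1 and 13 counts. Leukocyte markers summed to 115 to 119 and 115 to 141 CPM, nearly all of it CD68 (112 ± 0.513 and 120 ± 12.5 CPM, SD, n = 3 each), a lysosomal protein gene, while ITGB2, ITGAL, ITGAM, CD3E, LYZ and CD14 had between 0 and 10 counts. Fibroblast markers summed to 18.3 to 21.3 and 19.1 to 20.8 CPM, and endothelial markers to less than 3 CPM in each library. The part of any marker list in the integrin results was not tested.

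In the empty vector libraries ITGA3 was the most abundant alpha chain and ITGB1 the most abundant beta chain. Levels of different genes were compared per kilobase of the longest annotated transcript (CPM per kb). ITGA3, the laminin receptor chain, stood at 108 ± 2.35 CPM per kb (SD, n = 3). ITGA6, also a laminin receptor chain, followed at 43.7 ± 2.03, and ITGA5, the fibronectin receptor chain, at 42.0 ± 0.554 CPM per kb. The libraries of ITGA6 and ITGA5 overlapped, so their order is not resolved. ITGA2, the collagen receptor chain, stood at 38.5 ± 0.669, below both. ITGAV at 15.9 ± 0.825 and ITGA4 at 13.4 ± 0.637 CPM per kb were lower again, and did not overlap each other. Among beta chains ITGB1 stood at 67.2 ± 2.02, ITGB5 at 34.3 ± 2.12 and ITGB8 at 2.35 ± 0.378 CPM per kb. The epithelial subunit ITGB4, which is not among the listed members, lay between ITGB5 and ITGB8 at 6.04 ± 0.246 CPM per kb. The order among alpha chains depends on which transcript length is used: with the median length of a gene's annotated transcripts, ITGA2 took up 4.66% of the alpha pool in place of 14.2%, and ITGAV 9.19% in place of 5.84%.

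After SLNCR, ITGAV and ITGA2 rose and none of the 9 members fell. That is 2 of 9 higher, beside 8.84% of all tested genes, and 0 of 9 lower, beside 7.67% (edgeR quasi-likelihood test, Benjamini-Hochberg adjusted p below 0.05 over 12797 genes). The members' median log2 fold change was 0.16, and over all tested genes it was -0.01. The other 7 members did not pass.

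ITGAV encodes the alpha chain of the vitronectin receptors (chromosome 2, 186590065 to 186680901, plus strand, GRCh38). Its levels were 105, 115 and 115 CPM in empty vector replicates 1, 2 and 3, and 137, 128 and 141 CPM in SLNCR replicates 1, 2 and 3. Each SLNCR library lay above each empty vector library. The means were 112 ± 5.80 and 136 ± 6.44 CPM (SD, n = 3 each), a log2 fold change of 0.28 (SE 0.0616, adjusted p = 0.0139 by edgeR), or 1.21-fold.

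ITGA2 encodes the alpha chain of the collagen receptor (chromosome 5, 52989326 to 53094779, plus strand). It stood at 298, 302 and 309 CPM in the empty vector libraries and at 367, 329 and 384 CPM in the SLNCR libraries. Again the groups did not overlap, and the SLNCR libraries were spread more widely, with SDs of 5.27 and 28.2 CPM. Its log2 fold change was 0.25 (SE 0.0566, adjusted p = 0.0147 by edgeR), or 1.19-fold.

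Either gene missed the threshold when 1 of 3 particular libraries was left out. With empty vector replicate 1 left out, then empty vector replicate 2, then SLNCR replicate 1, ITGAV had log2 fold changes of 0.24, 0.30 and 0.27, with adjusted p = 0.108, 0.0804 and 0.0563 by edgeR. ITGA2 had 0.24, 0.25 and 0.24, with adjusted p = 0.108, 0.0840 and 0.0622 by edgeR. In those fits 1, 2 and 1 of all tested genes passed. With any of the other 3 left out, both genes passed. Without SLNCR replicate 2, ITGA4, ITGA6 and ITGB8 passed too, which made 5 of 9 higher beside 13.4% of all tested genes, and ITGB5 was lower, 1 of 9 beside 12.8%. Without empty vector replicate 3, 4 of 9 were higher beside 7.74%. Without SLNCR replicate 3, ITGB1 joined ITGAV and ITGA2, which made 3 of 9 higher beside 6.19%.

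Both genes lie low in GC content. ITGAV has 38.3% GC, and among the 1817 other tested genes within 2 percentage points of it 29.8% rose and 0.220% fell, with a median log2 fold change of 0.20. ITGA2 has 40.2% GC, and of its 2273 neighbours in GC content 21.6% rose, with a median of 0.16. When the trend with GC content was taken out library by library, ITGAV stood at 0.08 (SE 0.0469, adjusted p = 0.413 by edgeR) and ITGA2 at 0.09 (SE 0.0399, adjusted p = 0.297 by edgeR). With this GC correction 0 of the 9 members passed, beside 0.0156% of all tested genes. LINC00673 itself had an adjusted p = 0.0537 by edgeR. Its log2 fold change was 3.38 both with the correction (SE 0.201) and without it (SE 0.147). At an unadjusted p of 0.05 the corrected fit held 15.1% of all tested genes, and among the members ITGA2, ITGA3 and ITGA4. The part of GC content in the 2 rises was not tested beyond these values.

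**Figure D1:**
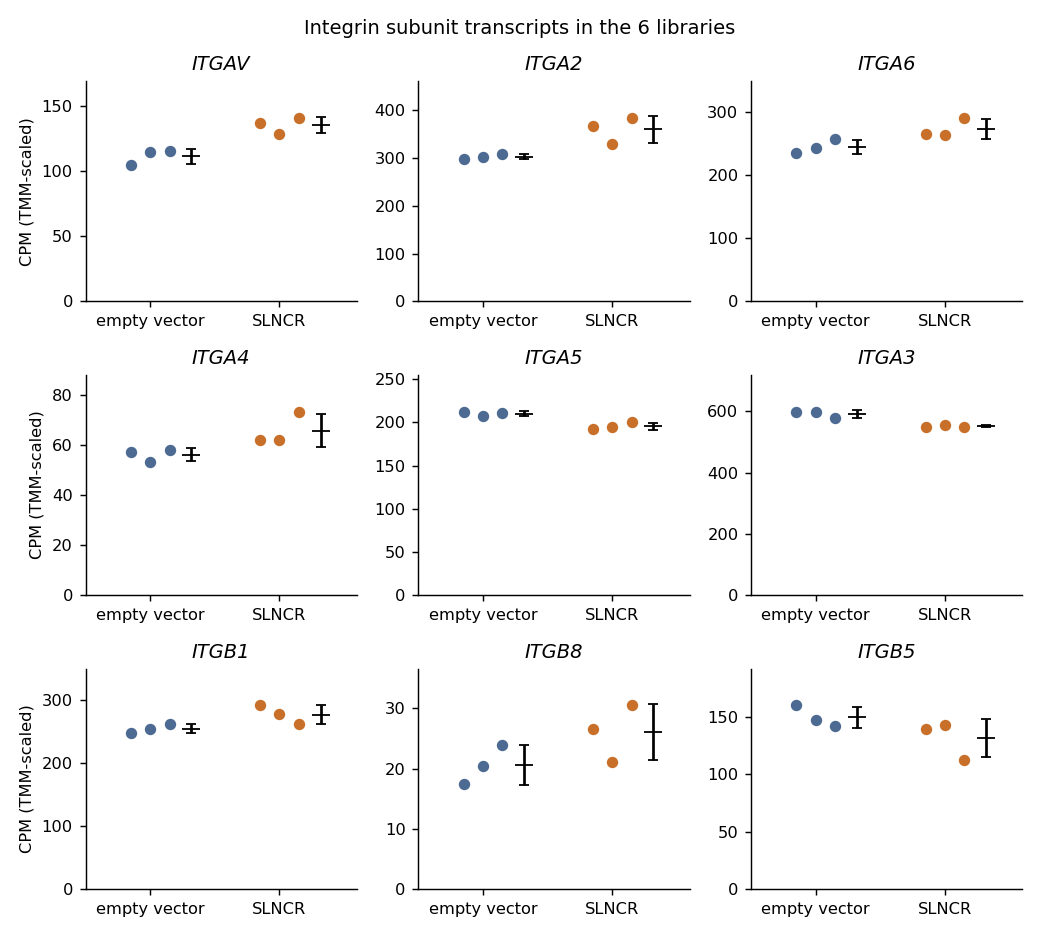
Levels of the 9 integrin transcripts in CPM (linear axes from 0, 1 panel per gene), with 1 point per library and the mean ± SD of 3 libraries beside each group. The SLNCR libraries of ITGAV (128 to 141 CPM) and ITGA2 (329 to 384 CPM) lie above all empty vector libraries, while the points of ITGB1, ITGB8 and ITGB5 overlap between groups.

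The other alpha chains split by direction without passing the test. ITGA4 encodes the chain that reads VCAM1 and fibronectin (chromosome 2, 181457202 to 181536187, plus strand). It stood at 57.2, 53.1 and 58.1 CPM with the empty vector and at 61.8, 61.9 and 73.3 CPM with SLNCR. The groups did not overlap, and SLNCR replicate 3 was the highest library. The log2 fold change was 0.22 (SE 0.0785, adjusted p = 0.0583 by edgeR), and 0.14 without that library (adjusted p = 0.195 by edgeR).

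ITGA6, a laminin receptor chain (chromosome 2, 172427354 to 172506282, plus strand), had 236, 243 and 258 CPM with the empty vector and 266, 264 and 292 CPM with SLNCR. Here too the groups did not overlap, though the gap between the nearest libraries was small, and the log2 fold change was 0.16 (SE 0.0561, adjusted p = 0.0614 by edgeR).

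ITGA3 and ITGA5 had negative values. ITGA3 (chromosome 17, 50055968 to 50090481, plus strand) stood at 598, 599 and 576 CPM with the empty vector and at 549, 554 and 549 CPM with SLNCR. Every SLNCR library was lower than every empty vector library, by a margin of a few percent, with a log2 fold change of -0.10 (SE 0.0443, adjusted p = 0.110 by edgeR). ITGA5 (chromosome 12, 54395261 to 54419460, minus strand) gave 213, 207 and 210 CPM against 192, 195 and 200 CPM. The groups again did not overlap, and the log2 fold change was -0.10 (SE 0.0508, adjusted p = 0.160 by edgeR).

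None of the 3 beta chains passed in the main test of all 6 libraries. ITGB1, the shared partner of most alpha chains (chromosome 10, 32900319 to 33005792, minus strand), had 247, 253 and 263 CPM with the empty vector and 291, 277 and 262 CPM with SLNCR. SLNCR replicate 3 lay within the empty vector range, and the log2 fold change was 0.12 (SE 0.0538, adjusted p = 0.116 by edgeR). Without that library it was 0.16 (SE 0.0490, adjusted p = 0.0260 by edgeR). ITGB5 (chromosome 3, 124761948 to 124901418, minus strand) had 160, 147 and 142 CPM against 140, 143 and 113 CPM. Its lowest library was SLNCR replicate 3, the groups overlapped, and the log2 fold change was -0.18 (SE 0.0788, adjusted p = 0.110 by edgeR). Without that library it was -0.083 (adjusted p = 0.351 by edgeR).

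ITGB8 (chromosome 7, 20330702 to 20415754, plus strand) was the scarcest member, with 174 to 280 counts per library. It stood at 17.4, 20.5 and 24.0 CPM with the empty vector and at 26.6, 21.1 and 30.5 CPM with SLNCR. The groups overlapped, and its log2 fold change of 0.34 had the widest error of the 9 (SE 0.135, adjusted p = 0.0896 by edgeR). It was 0.22 without empty vector replicate 1 and 0.22 without SLNCR replicate 3. Without empty vector replicate 3 it was 0.46 (adjusted p = 0.0491 by edgeR), and without SLNCR replicate 2 it was 0.47 (adjusted p = 0.0066 by edgeR).

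Counted by overlap alone, 4 of the 9 members had every SLNCR library above every empty vector library (ITGAV, ITGA2, ITGA4 and ITGA6), beside 19.7% of all tested genes. ITGA3 and ITGA5, 2 of the 9, had every SLNCR library below, beside 19.1%. The sign of the fold change followed base composition in each member: the 6 with a third-base GC share of 43.0% or less had positive values, and the 3 at 67.9% or more had negative ones. Across the 9 genes, which share the same 6 libraries, the log2 fold change had r = -0.911 with transcript GC content and r = -0.924 with third-base GC. After the GC correction, which by construction removes the trend with GC content, the first of these was -0.191.

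**Figure D2:**
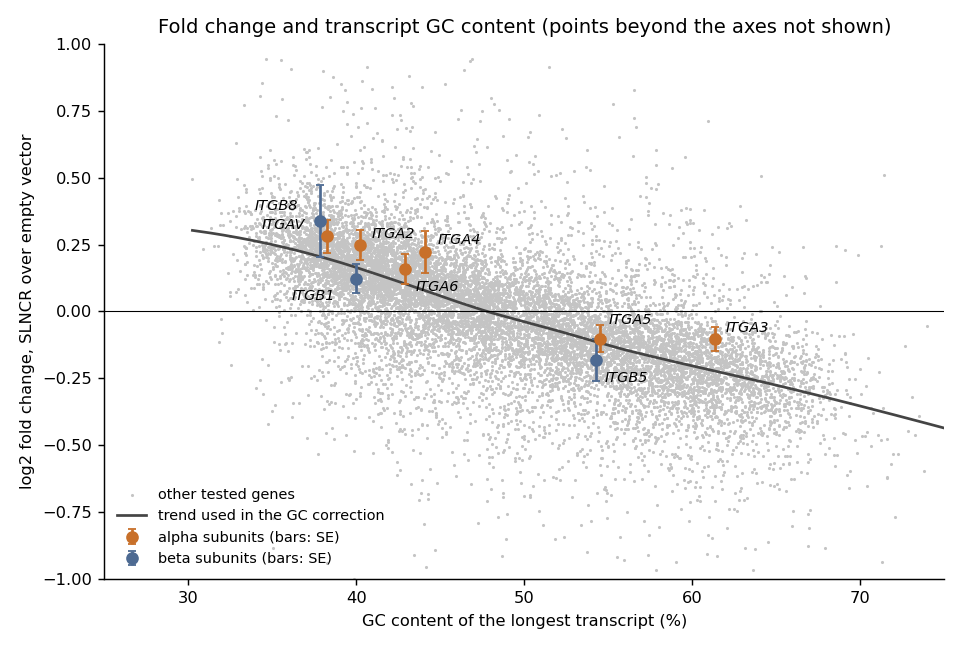
Log2 fold change after SLNCR (vertical axis) against the GC content of the longest transcript in % (horizontal axis) for tested genes, with the 9 integrin genes in colour (bars are SE) and the trend that the GC correction removes as a line. ITGAV, ITGA2, ITGA4, ITGA6, ITGB1 and ITGB8 lie above 0 at 37.8% to 44.1% GC, and ITGA3, ITGA5 and ITGB5 below 0 at 54.3% to 61.3% GC.

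ITGA3 had a negative value without the GC correction and a positive one with it. Its 61.3% GC is above that of 90.2% of tested genes, and the 1210 other genes within 2 percentage points had a median log2 fold change of -0.22, with 25.3% of them falling. ITGA3 at -0.10 was above that median, and the GC correction put it at 0.12 (SE 0.0405, unadjusted p = 0.00672, edgeR adjusted p = 0.157). In corrected log2 CPM its SLNCR libraries lay 0.09, 0.06 and 0.21 above the empty vector mean, and its empty vector libraries between -0.04 and 0.02. Without SLNCR replicate 2 the corrected value was 0.15 (adjusted p = 0.0328 by edgeR), in a fit where 2.28% of tested genes were higher. Its direction therefore depended on whether the GC trend was removed, and it did not pass in either fit of all 6 libraries.

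By its construction, the same correction moved the other members by about the amount of the trend at their GC content. ITGA4 stood at 0.14 (SE 0.0672, adjusted p = 0.314 by edgeR), ITGB8 at 0.13 (SE 0.108), ITGA6 at 0.05 (SE 0.0408) and ITGA5 at 0.02 (SE 0.0444). ITGB1 stood at -0.04 (SE 0.0501) and ITGB5 at -0.07 (SE 0.0605). In corrected values ITGAV, ITGA3 and ITGA4, 3 of the 9, had every SLNCR library above every empty vector library, beside 10.6% of all tested genes, and 0 of the 9 lay wholly below, beside 9.89%. The median of the 9 corrected log2 fold changes was 0.08, and that of all tested genes 0.00143.

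**Figure D3:**
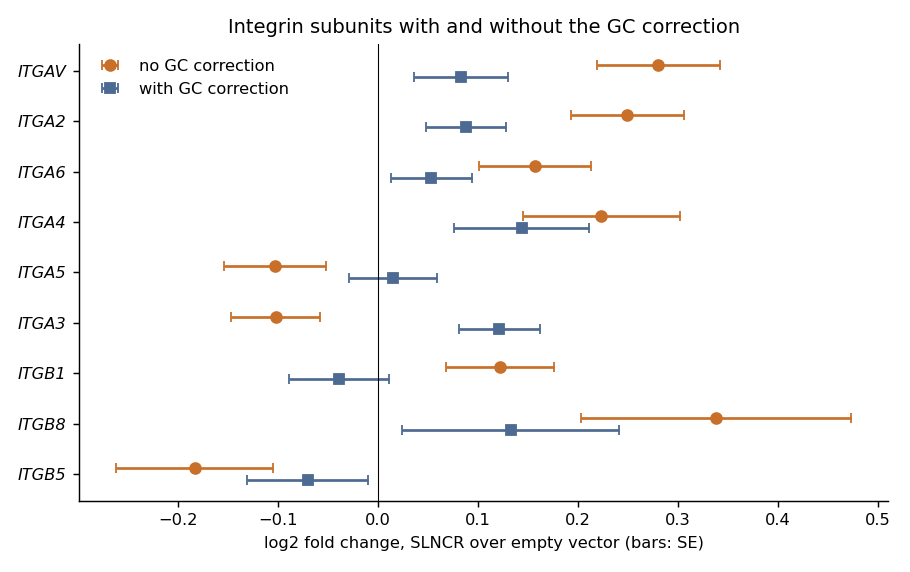
Log2 fold changes after SLNCR (horizontal axis, bars are SE) of the 9 integrin genes without the GC correction (circles) and with it (squares). ITGAV goes from 0.28 to 0.08 and ITGA2 from 0.25 to 0.09, while ITGA3 crosses from -0.10 to 0.12 and ITGB1 from 0.12 to -0.04.

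The libraries carried the GC trend to different degrees. At the GC content of ITGAV the fitted trend lay at 0.19, 0.13 and 0.28 in SLNCR replicates 1, 2 and 3, and at -0.05, -0.01 and 0.05 in empty vector replicates 1, 2 and 3, on the log2 scale relative to the empty vector mean. ITGAV itself lay at 0.30, 0.20 and 0.34, and at -0.09, 0.04 and 0.05. ITGA2 lay at 0.28, 0.12 and 0.34 in the SLNCR libraries, where the trend at its GC content was 0.15, 0.10 and 0.23. For both genes SLNCR replicate 2 had the smallest deviation and the smallest trend, and SLNCR replicate 3 the largest of each. The same held, in size, for ITGA6, ITGB8 and ITGB5, but not for ITGA3, ITGA4, ITGA5 and ITGB1. ITGB1 lay at 0.20, 0.12 and 0.04 in the SLNCR libraries, where the trend was 0.16, 0.11 and 0.23. ITGA5 lay at -0.13, -0.11 and -0.07, where the trend was -0.11, -0.08 and -0.16. The part of the trend in these deviations was not tested. Without SLNCR replicate 3, ITGAV stood at 0.25 (adjusted p = 0.00608 by edgeR) and ITGA2 at 0.20 (adjusted p = 0.00735 by edgeR).

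Because an alpha chain reaches the surface only with a beta chain, the transcript ratio of known partners was computed in each library, per kilobase of transcript. A further ratio set the alpha chains ITGA2 and ITGA3, which are not partners, against each other. The ratio of ITGAV to ITGB5, the vitronectin receptor pair, was 0.407, 0.484 and 0.504 with the empty vector and 0.609, 0.559 and 0.778 with SLNCR. Each SLNCR library lay above each empty vector library, with a mean difference of 0.47 on the log2 scale. The ratio of ITGAV to ITGB1 was 0.236 ± 0.00754 and 0.264 ± 0.0226 (SD, n = 3 each), also without overlap. Its libraries lay at 0.2283, 0.2434 and 0.2365 with the empty vector and at 0.2532, 0.2494 and 0.2903 with SLNCR. The gap between the nearest libraries was small, and SLNCR replicate 3 was the highest.

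The alpha chains of higher GC content had lower ratios to ITGB1 after SLNCR. ITGA3 to ITGB1 was 1.67, 1.63 and 1.52 with the empty vector and 1.30, 1.38 and 1.45 with SLNCR, and ITGA5 to ITGB1 was 0.626 ± 0.0226 and 0.537 ± 0.0406 (SD, n = 3 each). The groups did not overlap for either pair. The ratio of the collagen chain ITGA2 to the laminin chain ITGA3 was 0.357 ± 0.0139 with the empty vector and 0.455 ± 0.0378 with SLNCR, again without overlap. For ITGA2, ITGA4 and ITGA6 over ITGB1, and for ITGAV over ITGB8, the groups overlapped. In all 9 ratios were compared, and for the 5 without overlap the two-sided exact permutation p was 0.10, the smallest that 3 against 3 libraries allow (0.18 adjusted over the 9). How often the ratios of other gene pairs do not overlap was not computed, so whether 5 of 9 is unusual is not known. Among single tested genes, 38.9% had groups that did not overlap. Of those 5 pairs, 4 join genes of unlike GC content, and the part of the GC trend in them was not tested. ITGAV and ITGB1 are closer, at 38.3% and 39.98% GC.

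As shares of the pool, per kilobase, ITGA3 made up 39.7% ± 1.07 of alpha chain transcripts with the empty vector and 35.9% ± 1.23 with SLNCR (SD, n = 3 each). ITGA2 made up 14.2% ± 0.166 and 16.3% ± 0.864, ITGAV 5.84% ± 0.278 and 6.89% ± 0.166, and ITGA5 15.5% ± 0.239 and 14.0% ± 0.250. ITGB1 made up 61.1% ± 1.76 and 65.4% ± 1.11 of beta chain transcripts, and ITGB5 31.2% ± 1.91 and 26.9% ± 1.96. ITGB8 made up 2.14% ± 0.339 and 2.68% ± 0.621, and its libraries overlapped between groups. Shares within a pool constrain each other: the ITGB1 share also depends on ITGB5, which was lowest in SLNCR replicate 3 at 25.8 CPM per kb. The beta pool lacks ITGB3, and transcripts are not receptors, so these shares describe RNA only.

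**Figure D4:**
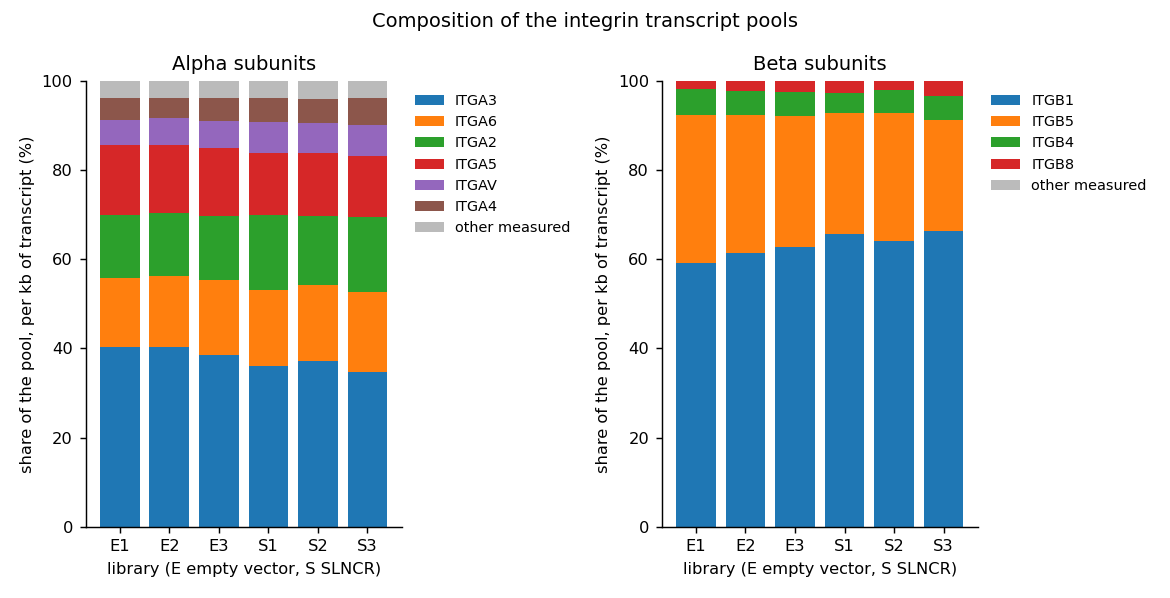
Shares of the alpha pool (left) and beta pool (right) of integrin transcripts per kb in each of the 6 libraries, in % of all measured subunits of that kind. ITGA3 makes up 38.5% to 40.4% of alpha transcripts in the empty vector libraries and 34.6% to 37.1% in the SLNCR libraries, and ITGB1 is the largest beta share in each library.

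By likeness to ITGAV over the 6 libraries, the nearest of 10624 genes (those averaging 50 counts or more) were MAGI2-AS3 (r = 0.998), REST (r = 0.997) and ZC3H15 (r = 0.996). Their GC contents were 34.0%, 39.96% and 41.1%. A value of r above 0.9 was reached by 12.9% of those genes, so such likeness was common in these libraries.

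The remaining integrin subunits did not pass in either direction in the main test. Of 16 other subunits 14 had a row and 6 were tested. ITGA1, a second collagen receptor chain, stood at 50.9 ± 2.70 and 59.4 ± 7.73 CPM (SD, n = 3 each), with a log2 fold change of 0.22 (SE 0.0881, adjusted p = 0.0893 by edgeR) at 38.8% GC, at 0.14 without SLNCR replicate 3, and at 0.03 after the GC correction. ITGB4, the laminin receptor chain of epithelia, stood at -0.12, ITGAE at -0.18, ITGA7 at -0.15, ITGA10 at 0.30 and ITGAX at 0.34. ITGA7, ITGA10 and ITGAX had mean counts of 28.3, 30 and 16.8, where fold changes are imprecise and leaving out 1 library moved those of ITGA7 (-0.39 to -0.03) and ITGA10 (0.09 to 0.50) widely. That of ITGAE lay between -0.33 and -0.11 in the same way. The other 8 with a row, among them the leukocyte subunits ITGB2, ITGAL and ITGAM, had between 0 and 9 counts per library, too few for a difference to be detectable.

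Genes that act with integrins were followed in 6 lists. None of the pathway genes named below passed when SLNCR replicate 1 or either of the first 2 empty vector libraries was left out. Their counts stand beside 8.84% of all tested genes higher and 7.67% lower, and several lie near those shares. Of 24 tested ligands 0 rose, 4 fell and 20 did not pass, with a median log2 fold change of -0.08 beside -0.01 over all tested genes. COL6A1, a collagen VI chain, fell by 0.27 (log2 scale, SE 0.0647, adjusted p = 0.0159 by edgeR). LAMA5, a laminin chain that ITGA3 and ITGA6 receptors bind, fell by 0.22, as did the adhesion molecule gene L1CAM, and TGFB1, whose latent form ITGB8 receptors hold, fell by 0.23. All 4 have a GC content of 60.05% to 66.4%, and with the GC correction they stood between -0.02 and 0.07, with 0 passing.

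Among 20 tested genes that switch integrins on or off, 1 rose and 3 fell. RAP1B, a small GTPase that brings talin to the membrane, had a rise of 0.24 (SE 0.0622, adjusted p = 0.0203 by edgeR). FLNA, which encodes a filamin that binds beta tails, fell by 0.19 on the log2 scale, and CIB1, which binds alpha tails, fell by 0.36. After the correction RAP1B stood at 0.03, FLNA at 0.05 and CIB1 at -0.19, and 0 of the list passed.

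Of 37 tested adaptors and kinases of adhesion sites 4 rose, 5 fell and 28 did not pass. PTPN12, a phosphatase that acts on the scaffold protein BCAR1, rose by 0.31 (SE 0.0659, adjusted p = 0.0137 by edgeR), and BCAR1 itself fell by 0.36 (SE 0.0842, adjusted p = 0.0159 by edgeR). ACTN4, an actin crosslinker, fell by 0.19, and VASP, which promotes actin filament growth, by 0.32. With the correction PTPN12 kept 0.16 (SE 0.0458, adjusted p = 0.108 by edgeR) and BCAR1 stood at -0.11. ACTN4 then stood at -0.00765 and VASP at -0.12, and 0 of the list passed.

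Of 31 tested genes of integrin uptake and recycling 4 rose and 1 fell. The endosomal genes RAB5A and EEA1 rose by 0.28 and 0.25 and the clathrin gene CLTC by 0.19. SNX17, which sends beta chains back to the surface, fell by 0.28 (SE 0.0643, adjusted p = 0.0149 by edgeR). With the correction the 4 genes stood at 0.15, 0.00121, 0.06 and -0.14 in that order of naming.

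Of 24 tested tetraspanins and surface partners 4 rose and 2 fell. CD44, the hyaluronan receptor gene, rose from 1332 ± 30.1 to 1527 ± 83.05 CPM (SD, n = 3 each), by 0.20 in log2 terms (adjusted p = 0.0159 by edgeR). NRP1, a co-receptor of growth factors, rose by 0.17, while the syndecan gene SDC1 fell by 0.22 and BSG, which encodes basigin, by 0.23. With the correction CD44 stood at 0.14 (SE 0.0350, adjusted p = 0.0760 by edgeR), NRP1 at 0.11, and SDC1 and BSG at -0.02 and -0.00217.

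Integrin chains fold in the endoplasmic reticulum and some alpha chains are then cleaved. Of 12 tested chaperone and processing genes 2 rose and 2 fell. CANX, which encodes the chaperone calnexin, rose by 0.20, and HSP90B1, a chaperone that integrins need for folding, rose by 0.16. PRKCSH, a subunit of a sugar-trimming enzyme, fell by 0.22 on the log2 scale. PCSK7, a proprotein convertase, fell by 0.34 (SE 0.0937, adjusted p = 0.0249 by edgeR), and with the GC correction stood at -0.37 (adjusted p = 0.0953 by edgeR). Its GC content of 46.3% lies near the median. With the correction CANX stood at 0.07, HSP90B1 at 0.02 and PRKCSH at -0.00505, and 0 of the list passed.

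The study set out to describe transcription factors tied to the changed genes, so the promoters of the members that rose are shown. They are the bases before the first annotated start, from RefSeq (GRCh38.p14), 5′ to 3′ on the plus strand, with matches to GGGCGG, the core of the SP1 motif, in capitals.
ITGAV, chr2:186589806-186590055, plus strand: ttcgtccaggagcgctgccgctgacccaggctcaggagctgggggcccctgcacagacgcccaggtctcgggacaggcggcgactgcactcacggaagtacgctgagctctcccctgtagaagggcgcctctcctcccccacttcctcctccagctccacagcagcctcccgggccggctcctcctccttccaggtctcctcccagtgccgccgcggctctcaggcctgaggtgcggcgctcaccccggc
ITGA2, chr5:52989102-52989325, plus strand: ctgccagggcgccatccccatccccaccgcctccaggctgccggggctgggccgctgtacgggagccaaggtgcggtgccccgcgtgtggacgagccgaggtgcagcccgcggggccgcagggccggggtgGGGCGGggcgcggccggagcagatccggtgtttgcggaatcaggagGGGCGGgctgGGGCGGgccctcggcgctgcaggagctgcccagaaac
The ITGAV stretch is 70.8% G or C and that of ITGA2 77.2%, although both transcripts are low in GC content. Both strands were searched for the E2F sequences TTTCGCGC and TTTGGCGC, the AP-1 sequence TGANTCA and GGGCGG. ITGA2 had 3 matches to GGGCGG and ITGAV 0, and neither matched the other motifs. Over the 13 promoters of the 8 members in the RefSeq table, in windows of 250 bases, 7 held GGGCGG and 0 held any of the others. Of all 35116 promoters in windows of that length 42.6% held GGGCGG, 6.57% TGANTCA, 0.439% TTTCGCGC and 0.550% TTTGGCGC, so 0 matches among 13 says little about these letters and nothing about the factors.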

How the data were processed

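The deposited table holds raw counts of reads per gene, whole numbers whose totals differ between libraries, for 6 RNA libraries. Per the labels' protocols, RNA was depleted of ribosomal RNA and sequenced as pairs of 150 bases. The submitters' processing notes name cutadapt, STAR, DESeq2 and GRCh38. Which counter, annotation or strand setting the authors used is not given in the sources used here. Antisense or overlapping transcripts annotated at 7 of the 9 members had no row, and their reads cannot be told apart from the member's. Of 20238 rows, 1857 name no gene (2.15% to 2.59% of counts). They were left out, as were 63 copies in runs of identical rows, with 0 members among them.

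The main test was the quasi-likelihood F-test of edgeR (version 4.0.16, R 4.3.3) with robust dispersion, TMM factors and filterByExpr, and Benjamini-Hochberg adjustment over 12797 genes at 0.05. CPM are TMM-scaled. For the GC correction, a loess curve of log2 deviation against the GC content of the longest GENCODE transcript (span 0.5, degree 2) was removed from each library. The edgeR fit was tested on simulated data. Genes named are the members, LINC00673, other tested subunits and up to 4 genes per list with the smallest adjusted p, and the nearest genes by likeness. One gene that this rule names is not reported here. Members and lists were chosen with earlier results of these data known. Alternatives were other scaling factors and filters, DESeq2 1.42.0, limma-voom (limma 3.58.1), a replicate block, the GC correction, and leaving out each library. A mean count of 225.5 gives ITGB8 the least precision.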

Additional observations from a re-analysis of the deposited data

How the results depend on the processing

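Without the GC correction, ITGAV and ITGA2 passed in 10 of 13 alternatives each, and with it in 0 of 8. Other scaling factors, a stricter filter, DESeq2 and limma-voom gave the same 2 members higher and 0 lower. In those fits 7.99% to 10.9% of all tested genes were higher and 7.32% to 9.81% lower. Genes changed numbered 2112, beside 2 with the GC correction, 2 at a threshold of 0.01, 3642 at 0.1, and 0 to 3366 when 1 library was left out, with or without the correction. Members higher numbered 5 with no filter (beside 9.11% of all genes) and 5 at a threshold of 0.1 (beside 14.4%). They numbered 0 at 0.01 (beside 0.0156%), 0 with the GC correction (beside 0.00781%), and 0 to 5 without 1 library. Members lower numbered 1, ITGB5, with no filter (beside 6.74%), and 0 to 1 without 1 library. Without SLNCR replicate 2 the members higher were ITGA2, ITGA4, ITGA6, ITGAV and ITGB8 and the lower one ITGB5. The cause of these differences was not tested.

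Whether replicate numbers pair the libraries was not resolved. Correlations of same-numbered deviations were 0.0414, 0.0217 and 0.195, and those of differently numbered ones lay between -0.170 and 0.143. With the replicate block 3523 genes changed, 5 members were higher (beside 13.8%) and 1 lower (beside 13.7%). With the block and the GC correction 407 genes changed and 0 members were higher (beside 1.26%).

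The GC correction, alone and with the replicate block, reversed the log2 fold change to 0.12 and 0.12 in ITGA3, 0.015 and 0.015 in ITGA5, -0.039 and -0.042 in ITGB1 and 0.046 and 0.039 in ITGA7. Both reversed it to 0.14 and 0.14 in ITGB4, 0.074 and 0.074 in LAMA5, 0.021 and 0.021 in TGFB1 and 0.047 and 0.047 in FLNA. When 1 library was left out, with or without the GC correction, the log2 fold change of these genes crossed 0: ITGA3 from -0.12 to 0.15, ITGA5 from -0.12 to 0.039, ITGB1 from -0.082 to 0.16, ITGB5 from -0.24 to 0.0077, ITGA1 from -0.016 to 0.32 and ITGA7 from -0.39 to 0.17. The same held for ITGAE from -0.33 to 0.017, ITGB4 from -0.14 to 0.18, COL6A1 from -0.29 to 0.031, LAMA5 from -0.26 to 0.10, L1CAM from -0.25 to 0.038 and TGFB1 from -0.28 to 0.042. So did FLNA from -0.21 to 0.063, ACTN4 from -0.23 to 0.0089, EEA1 from -0.049 to 0.31, SDC1 from -0.25 to 0.0050, BSG from -0.31 to 0.017 and PRKCSH from -0.27 to 0.0064. Each value on the other side of 0 came with the GC correction. With the median transcript length, shares of the empty vector pools were 9.19% for ITGAV, 4.664% for ITGA2, 45.95% for ITGA3, 2.721% for ITGA4, 19.81% for ITGA5, 14.04% for ITGA6, and in the beta pool 65.65% for ITGB1, 27.91% for ITGB5 and 0.8844% for ITGB8.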
